A study of Saccharomyces cerevisiae with 4 samples.

Results

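The genes described here encode the RNA polymerase I and III machinery of budding yeast (Saccharomyces cerevisiae): the subunits that belong to one or both of these enzymes but not to RNA polymerase II, their dedicated initiation factors, and the Pol III repressor Maf1. The 35 genes were chosen by a list of names, a rule that itself uses no measured value, out of 6459 rows of the deposited tables, and all 35 passed the filter on low counts. They comprise 7 Pol I subunits, 2 subunits shared by Pol I and Pol III, 10 Pol III subunits, 7 Pol I initiation factors, 8 Pol III initiation factors and MAF1. Messenger RNA levels were compared by RNA sequencing between ESS1-AID cells treated with 2 mM IAA for 3 h (2 libraries) and ESS1-AID cells given DMSO for the same time (2 libraries). Ess1 is an essential prolyl isomerase that acts on the tail of the largest RNA polymerase II subunit. Both groups were grown in YPD at 30 °C to mid-log phase and both carry the same changes to the BY4741 background, with HIS3::ADH1-OsTIR19Myc at the HIS3 locus and ESS1 tagged as AID 71-114-6Flag::hphB. In this system IAA, a plant auxin, lets the rice F-box protein OsTIR1, here driven by the ADH1 promoter, mark a protein tagged with an auxin-inducible degron (AID) for destruction. Every library came from the degron strain, so loss of Ess1 and other effects of IAA cannot be told apart, and Ess1 protein was not measured in the files used here.

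RNA polymerase I transcribes the repeated ribosomal DNA into the precursor of the large ribosomal RNAs, and RNA polymerase III makes the small ribosomal RNA, the transfer RNAs and a few other short RNAs. Pol I starts transcription when Rrn3 bridges the enzyme to core factor on the ribosomal DNA promoter, which the upstream activating factor also binds. Pol III is placed by TFIIIC, which reads sequences inside the gene, and by TFIIIB, which TFIIIC sets upstream of it. In growing yeast these enzymes account for most RNA synthesis, and their genes belong to the ribosome biogenesis programme, whose promoters often hold short sequences named PAC and RRPE.

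The deposited tables gave an estimated count and an FPKM (fragments per kilobase of transcript, scaled to sequencing depth) for each gene. Estimated counts summed to 33589128 and 33625232 in the IAA libraries and to 26046702 and 27609311 in the DMSO libraries. Each member had between 179 and 25387 counts in every library. Levels below are counts scaled to a common depth (CPM) with TMM factors, which set libraries to a common centre, and are compared only between libraries for 1 gene; levels of different genes are compared in FPKM, which carry no TMM scaling. A gene was called when its adjusted p from edgeR's quasi-likelihood test was under 0.05 over the 5799 genes tested; with 2 biological replicates a group, as the series' design text names them, the p-values rest on 4 libraries. ESS1 mRNA stood at 6.70 and 7.92 CPM in IAA libraries and 5.15 and 5.31 CPM in DMSO libraries, and since the degron acts on the protein this does not check the depletion. URA3, LEU2 and MET17, which BY4741 lacks, had no count in any library. Of the mating type a markers STE2 stood at 381 and 363 CPM in IAA libraries and 395 and 362 CPM in DMSO libraries. BAR1 stood at 155 and 145 CPM in IAA libraries and 111 and 103 CPM in DMSO libraries. The short pheromone transcripts MFA1 and MFA2 were below 1 CPM. Of the alpha markers SAG1 stood at 46.3 and 44.5 CPM in IAA libraries and 39.0 and 41.4 CPM in DMSO libraries. STE3 stood at 4.7 and 5.1 CPM in IAA libraries and 5.5 and 6.1 CPM in DMSO libraries. MFALPHA1 and MFALPHA2 were below 2 CPM. BAR1, SAG1 and MFA2 were called higher, MFA2 from 26 and 17 counts in IAA libraries and 5 and 3 counts in DMSO libraries. Ribosomal DNA rows held 7.02 and 6.16% of counts in IAA libraries and 5.26 and 4.87% in DMSO libraries; the part of this difference in the results was not tested.

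The machinery as a whole was slightly lower in IAA cells. Summed over the 35 genes, the level was 3945 and 3881 CPM in IAA libraries and 4257 and 4203 CPM in DMSO libraries, a ratio of 0.925. Both IAA libraries lay under both DMSO libraries. Of the 35 genes 16 were lower, 1 was higher and 18 did not pass the threshold. Lower calls thus took 45.7% of the members and 29.6% of all tested genes, and higher calls took 2.86% of the members and 28.7% of all tested genes, where 58.3% of genes were called in either direction. The median log2 fold change of IAA over DMSO was -0.15 for the members and -0.00 for all tested genes, and 25 of 35 members were below 0. Changes were small: 10 of 35 members were called lower by at least 1.2-fold, against 1022 of 5799 tested genes (17.6%). Only RPC17 and RRN3 were called with a change of 1.5-fold or more, 2 of 35, against 559 of 5799 tested genes. The 2 IAA and 2 DMSO libraries did not overlap for 28 members (80.0%), close to the 81.5% of all tested genes.

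The count of calls moved with the scaling of the libraries. With the upper quartile of counts as the common centre 11 members were lower and 7 higher, beside 21.3% and 37.6% of all tested genes. With library size alone 22 were lower and 1 higher, beside 43.1% and 19.5% of all tested genes. These scalings moved the median of all tested genes to 0.07 and -0.11. Relative to that median the members' median stayed between -0.14 and -0.15 under each scaling. Without the second IAA library the members' median was -0.08. With the trends that fold changes of coding genes showed with expression, GC content and coding length removed, the members' median was -0.13. No called member then changed direction, and among called members RPC40 alone moved by over 1.5 times, to -0.10 against -0.18.

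**Figure D1:**
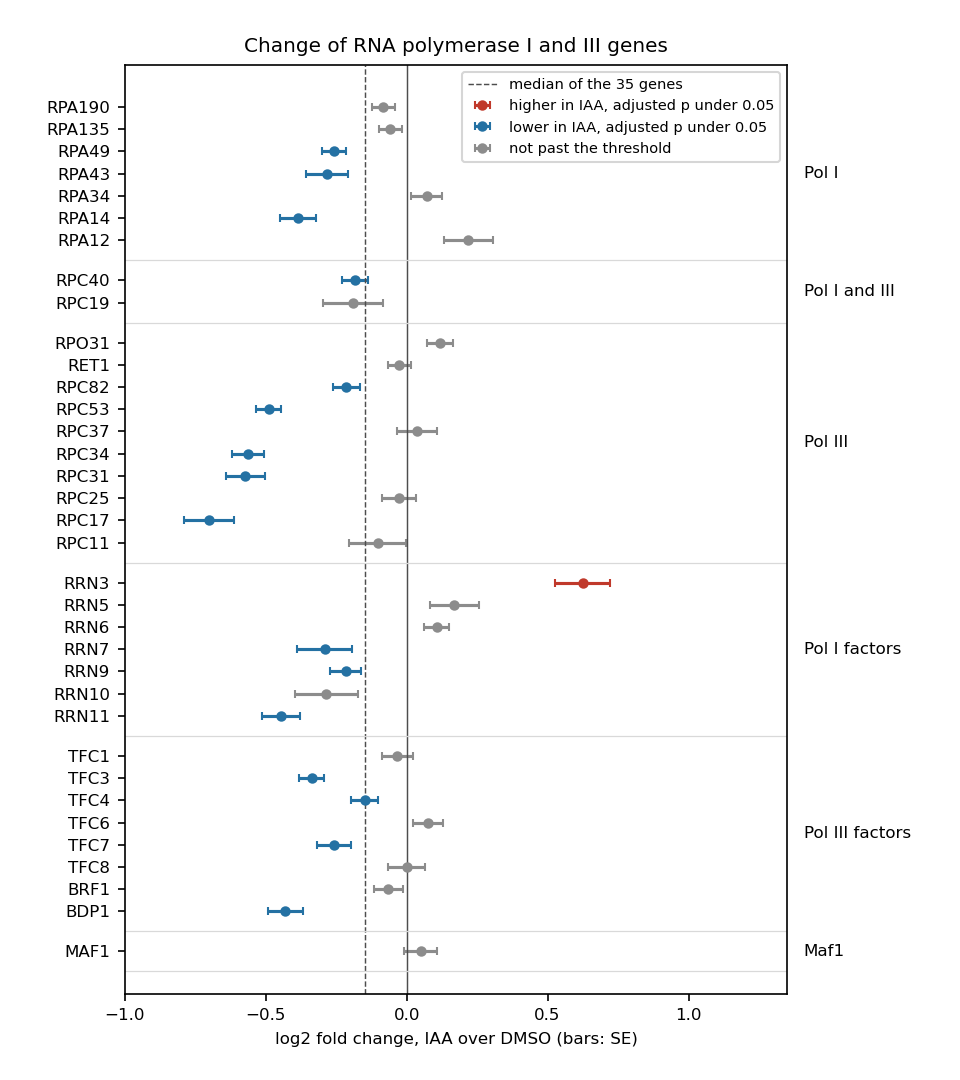
The log2 fold change of IAA over DMSO for each of the 35 genes, grouped by complex, with bars of 1 standard error from edgeR's fit and colour for the call; lines mark 0 and the median of the 35 genes. Most points lie left of 0, from -0.70 for RPC17, and RRN3 at 0.62 lies farthest to the right.

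Per length of transcript, the Pol I and shared subunits were the more abundant messages in IAA libraries, where Pol III subunits and initiation factors lay lower and overlapped each other. In DMSO libraries the Pol III genes RPC31 (157 FPKM) and RPC53 (133 FPKM) stood above the Pol I genes RPA190 (130 FPKM) and RPA12 (114 FPKM). In FPKM, RPC40 was the highest member, at 294 ± 6.12 in IAA libraries and 354 ± 10.2 in DMSO libraries (SD, n = 2 each). RRN5, part of the upstream activating factor, was the lowest, at 13.3 ± 0.389 FPKM in IAA libraries and 12.5 ± 0.665 in DMSO libraries. Pol I subunits ranged from 114 to 218 FPKM in IAA libraries and from 114 to 243 in DMSO libraries. Pol III subunits ranged from 38.8 to 100 FPKM in IAA libraries and from 49.4 to 157 in DMSO libraries. The largest Pol I subunit gene RPA190 had 114 ± 1.58 FPKM in IAA libraries and 130 ± 1.75 in DMSO libraries, while its Pol III counterpart RPO31 had 48.7 and 51.3 in IAA libraries and 48.3 and 50.6 in DMSO libraries.

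**Figure D2:**
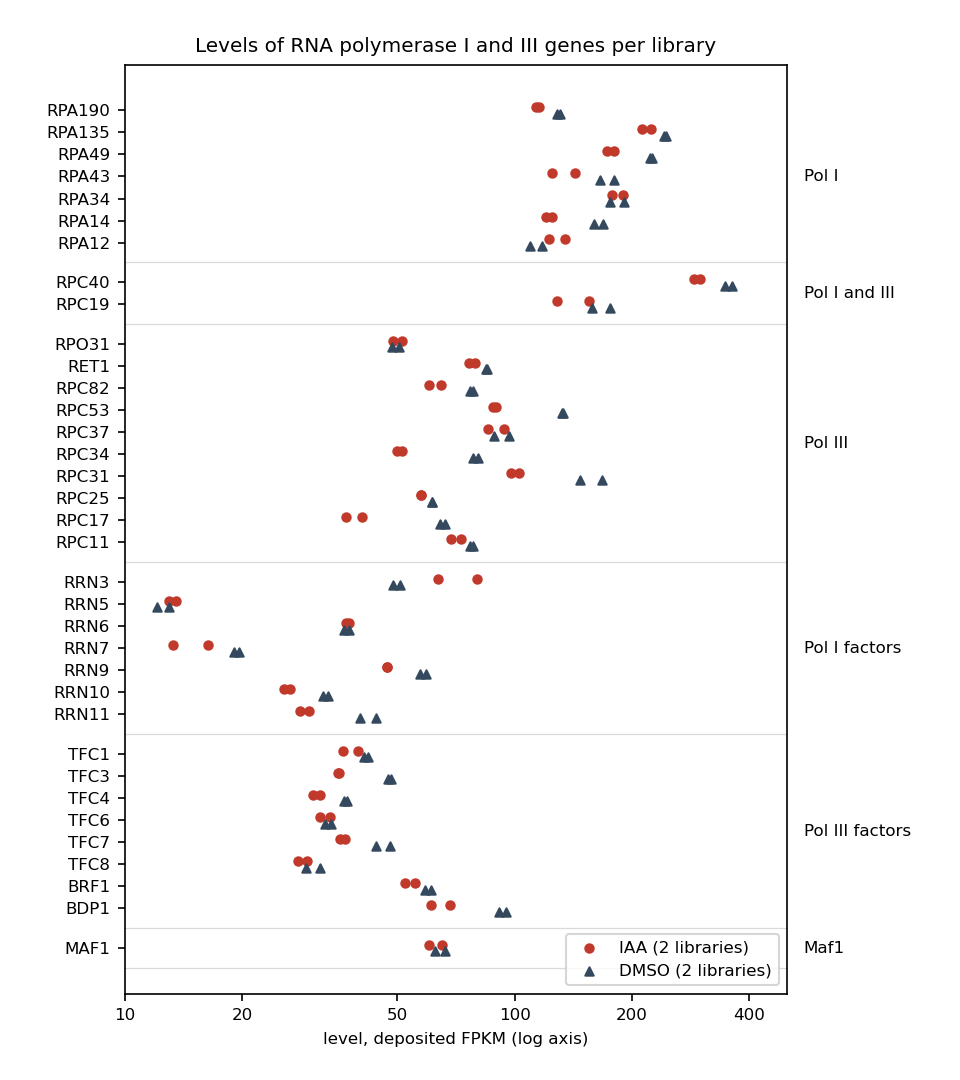
Deposited FPKM of each gene on a log axis in the 2 IAA libraries (circles) and the 2 DMSO libraries (triangles), grouped by complex. In IAA libraries Pol I and shared subunits lie to the right, and Pol III subunits and factors overlap to their left. In DMSO libraries RPC31 and RPC53 reach into the range of the Pol I subunits. The circles of RPC17, RPC31, RPC34, RPC53, BDP1 and RRN11 lie clear of their triangles on the low side, those of RRN3 on the high side.

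The promoter windows of 5 members are shown because they span the range of letters and responses: 4 hold both PAC and RRPE core letters, and of these RPA49 and RPC53 were lower, RPC25 was not called and RRN3 was higher; RPC17, the largest fall, holds neither. Each window runs 5′ to 3′ on the gene's own strand from 250 bases before the annotated start to 50 bases after it, read from the RefSeq R64 genome. Capitals mark the PAC core GATGAG, which reads CTCATC on the other strand, and the RRPE core AAAATTTT, which reads the same on both strands.
RPA49 (chrXIV:182559-182858, minus strand): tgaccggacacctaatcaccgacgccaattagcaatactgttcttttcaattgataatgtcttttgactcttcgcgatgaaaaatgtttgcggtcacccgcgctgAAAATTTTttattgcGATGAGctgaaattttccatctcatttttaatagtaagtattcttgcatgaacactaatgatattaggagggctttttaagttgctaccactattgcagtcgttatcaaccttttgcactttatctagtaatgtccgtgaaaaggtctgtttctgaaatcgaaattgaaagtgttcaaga
RPC53 (chrIV:183093-183392, plus strand): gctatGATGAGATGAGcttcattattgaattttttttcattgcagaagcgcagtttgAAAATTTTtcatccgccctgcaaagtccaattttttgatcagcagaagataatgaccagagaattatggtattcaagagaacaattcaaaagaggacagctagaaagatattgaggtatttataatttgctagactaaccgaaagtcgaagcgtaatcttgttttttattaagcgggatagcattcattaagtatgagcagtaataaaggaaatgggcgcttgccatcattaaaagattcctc
RPC25 (chrXI:176432-176731, minus strand): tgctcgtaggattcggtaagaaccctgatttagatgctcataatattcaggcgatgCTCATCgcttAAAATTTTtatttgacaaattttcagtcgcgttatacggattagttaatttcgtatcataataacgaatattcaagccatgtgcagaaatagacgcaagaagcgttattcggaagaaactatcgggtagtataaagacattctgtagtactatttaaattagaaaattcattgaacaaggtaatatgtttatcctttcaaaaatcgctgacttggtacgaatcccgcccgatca
RRN3 (chrXI:207997-208296, plus strand): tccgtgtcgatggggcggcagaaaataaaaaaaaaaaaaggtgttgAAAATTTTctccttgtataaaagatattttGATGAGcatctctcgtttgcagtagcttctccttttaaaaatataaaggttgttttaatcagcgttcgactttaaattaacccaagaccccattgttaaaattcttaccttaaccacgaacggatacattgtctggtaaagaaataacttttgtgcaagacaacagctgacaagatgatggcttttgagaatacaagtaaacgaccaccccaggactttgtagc
RPC17 (chrX:414721-415020, minus strand): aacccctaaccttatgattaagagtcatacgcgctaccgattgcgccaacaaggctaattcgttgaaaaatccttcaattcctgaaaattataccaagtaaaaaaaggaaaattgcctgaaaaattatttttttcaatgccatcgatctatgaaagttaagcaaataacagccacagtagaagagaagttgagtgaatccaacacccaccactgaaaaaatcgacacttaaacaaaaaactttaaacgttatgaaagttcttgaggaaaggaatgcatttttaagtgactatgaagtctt

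Among the Pol I subunits 3 of 7 were lower (42.9%, against 29.6% lower and 28.7% higher among all tested genes). Their median log2 fold change was -0.08. None was called higher by edgeR, DESeq2 or limma-voom, and RPA12 alone was higher at an unadjusted p under 0.05 in edgeR. The catalytic pair RPA190 and RPA135, which together form the active centre, did not pass the threshold. RPA190 (chromosome XV, 960987 to 965981, plus strand) stood at 573 and 556 CPM in IAA libraries and 604 and 592 CPM in DMSO libraries, a log2 fold change of -0.08 (SE 0.041, adjusted p = 0.117). RPA135 stood at 747 and 779 CPM in IAA libraries and 798 and 790 CPM in DMSO libraries (log2 fold change -0.06, adjusted p = 0.263). Both IAA libraries lay just under both DMSO libraries for each of these genes. Scaling by library size alone, which moved the median of all tested genes to -0.11, called both lower. Adjusted p was then 0.00426 for RPA190 and 0.0110 for RPA135. Under upper quartile scaling the log2 fold changes were -0.01 for RPA190 (adjusted p = 0.908) and 0.02 for RPA135 (adjusted p = 0.728).

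The Pol I stalk, which receives the emerging RNA and holds the site that Rrn3 binds, is built from Rpa43 and Rpa14, and both genes were lower. RPA14 had the largest fall of the Pol I subunits, with 24.7 and 23.1 CPM in IAA libraries and 30.6 and 31.7 CPM in DMSO libraries, a log2 fold change of -0.38 (SE 0.064, adjusted p = 0.00118). RPA43 had 112 and 96.4 CPM in IAA libraries and 133 and 122 CPM in DMSO libraries, a log2 fold change of -0.28 (SE 0.075, adjusted p = 0.0114). The groups were apart for both genes, although the RPA43 call was lost under upper quartile scaling (adjusted p = 0.0505). Without the second IAA library the log2 fold change of RPA43 was -0.17, and without the first it was -0.40. Of the Rpa49 and Rpa34 dimer, which aids initiation and elongation, RPA49 was lower, at 183 and 188 CPM in IAA libraries and 224 and 221 CPM in DMSO libraries (log2 fold change -0.26, adjusted p = 0.00113). Its partner RPA34 had 88.0 and 91.9 CPM in IAA libraries and 89.5 and 81.9 CPM in DMSO libraries, groups that overlap (log2 fold change 0.07, adjusted p = 0.301). RPA12, whose product helps the enzyme cleave its RNA, had the highest log2 fold change of the Pol I subunits at 0.22, with 22.0 and 19.2 CPM in IAA libraries and 18.5 and 16.9 CPM in DMSO libraries. Its libraries did not overlap but it missed the threshold (SE 0.087, adjusted p = 0.0590). It was called higher in 5 of 15 alternative fits, among them upper quartile scaling (adjusted p = 0.0248), and its log2 fold change was 0.12 without the first IAA library and 0.32 without the second.

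Rpc40 and Rpc19 form the dimer on which both enzymes are assembled. RPC40 was lower, with 243 and 232 CPM in IAA libraries and 276 and 264 CPM in DMSO libraries, a log2 fold change of -0.18 (SE 0.046, adjusted p = 0.00869). That call was lost under upper quartile scaling (adjusted p = 0.0873) and without the first DMSO library (adjusted p = 0.111). RPC19 had 33.2 and 26.5 CPM in IAA libraries and 36.1 and 32.0 CPM in DMSO libraries, a log2 fold change of -0.19 that did not pass (SE 0.107, adjusted p = 0.156). The first IAA library of RPC19 lay between the DMSO libraries, so the groups overlapped. The value rests on the IAA libraries: without the first the log2 fold change of RPC19 was -0.37 (adjusted p = 0.00296), and without the second it was -0.03 (adjusted p = 0.781); without the first DMSO library it was -0.10.

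Of the Pol III subunits 5 of 10 were lower (50%, against 29.6% lower and 28.7% higher among all tested genes). Their median log2 fold change was -0.16, and they held the 4 largest falls among the 35 genes. None was called higher by edgeR, DESeq2 or limma-voom, and RPO31 alone was higher at an unadjusted p under 0.05 in edgeR. The catalytic pair differed little from DMSO cells. RPO31, the largest subunit, had 211 and 220 CPM in IAA libraries and 194 and 203 CPM in DMSO libraries, a log2 fold change of 0.12 (SE 0.046, adjusted p = 0.0571). It was the highest fold change of the Pol III subunits. It passed under some settings, among them upper quartile scaling and DESeq2's size factors (adjusted p = 0.0492 with these size factors). With library size only the log2 fold change of RPO31 was 0.01 (edgeR adjusted p = 0.829). By limma on log2(FPKM + 1) it was 0.02 (adjusted p = 0.815). RET1, the second largest subunit, had a log2 fold change of -0.03 (adjusted p = 0.598).

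All 3 genes of the Pol III trimer that opens the promoter and contacts TFIIIB were lower. RPC31 ranged from 53.2 to 56.6 CPM in IAA libraries and from 76.2 to 87.1 CPM in DMSO libraries, a log2 fold change of -0.57 (SE 0.070, adjusted p = 2.67e-04). RPC34, whose product binds Brf1, ranged from 37.3 to 39.1 CPM in IAA libraries and from 55.6 to 57.1 CPM in DMSO libraries, a log2 fold change of -0.56 (SE 0.056, adjusted p = 1.12e-04). RPC82 fell less, with 109 to 116 CPM in IAA libraries and 129 to 132 CPM in DMSO libraries (log2 fold change -0.21, adjusted p = 0.00502). Every IAA library lay under every DMSO library in this trimer, and its 3 calls held in each of the 15 alternative fits.

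Within the other Pol III subassemblies 1 partner was lower and the other was not called. In the dimer that serves initiation and termination, RPC53 (chromosome IV, 183343 to 184611, plus strand) had 94.3 to 97.2 CPM in IAA libraries and 134 to 135 CPM in DMSO libraries, a log2 fold change of -0.49 (SE 0.044, adjusted p = 6.8e-05). Its partner RPC37 had 60.8 and 54.6 CPM in IAA libraries and 59.0 and 53.7 CPM in DMSO libraries, which overlap (log2 fold change 0.04, adjusted p = 0.690). In the stalk, RPC17 (chromosome X, 414285 to 414770, minus strand) had 11.0 and 9.76 CPM in IAA libraries and 17.3 and 16.5 CPM in DMSO libraries. This was the largest fall of the 35 genes, 1.63-fold (log2 fold change -0.70, SE 0.087, adjusted p = 2.86e-04). Its stalk partner RPC25 had 24.8 and 24.2 CPM in IAA libraries and 25.1 and 24.8 CPM in DMSO libraries (log2 fold change -0.03, adjusted p = 0.715). RPC11, whose product cleaves RNA in the paused enzyme, had 8.78 and 7.83 CPM in IAA libraries and 8.96 and 8.88 CPM in DMSO libraries (log2 fold change -0.10, adjusted p = 0.407).

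Ratios of FPKM between partners within a library do not depend on how libraries are scaled, so they were set beside the fold changes; they show unequal change only, and with 2 libraries a group an exact two-sided permutation test cannot go below p = 0.333. RPC53 over RPC37 was 0.955 and 1.028 in IAA libraries and 1.37 and 1.497 in DMSO libraries. RPC17 over RPC25 was 0.705 and 0.643 in IAA libraries and 1.08 and 1.05 in DMSO libraries. Both ratios were lower in both IAA libraries, by factors of 0.691 and 0.634. In the trimer, RPC34 over RPC82 and RPC31 over RPC82 were lower in both IAA libraries too, each by a factor of 0.793. The groups were apart for 81.5% of all tested single genes, and no such share was computed for ratios. RPA49 over RPA34, the Pol I dimer related to the RPC53 and RPC37 dimer, was 0.971 and 0.949 in IAA libraries and 1.18 and 1.26 in DMSO libraries. Other Pol I ratios were less uniform. RPA43 over RPA190, the stalk against the largest subunit, was 1.236 and 1.101 in IAA libraries and 1.37 and 1.29 in DMSO libraries, apart by a factor of 0.879. The remaining ones overlapped between the groups: RPA190 over RPA135 was 0.545 and 0.507 in IAA libraries and 0.538 and 0.533 in DMSO libraries, and RPA14 over RPA43 was 0.871 and 0.967 in IAA libraries and 0.891 and 1.019 in DMSO libraries. Between the enzymes, RPA190 over RPO31 was 2.37 and 2.21 in IAA libraries and 2.71 and 2.54 in DMSO libraries, apart by a factor of 0.871.

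**Figure D3:**
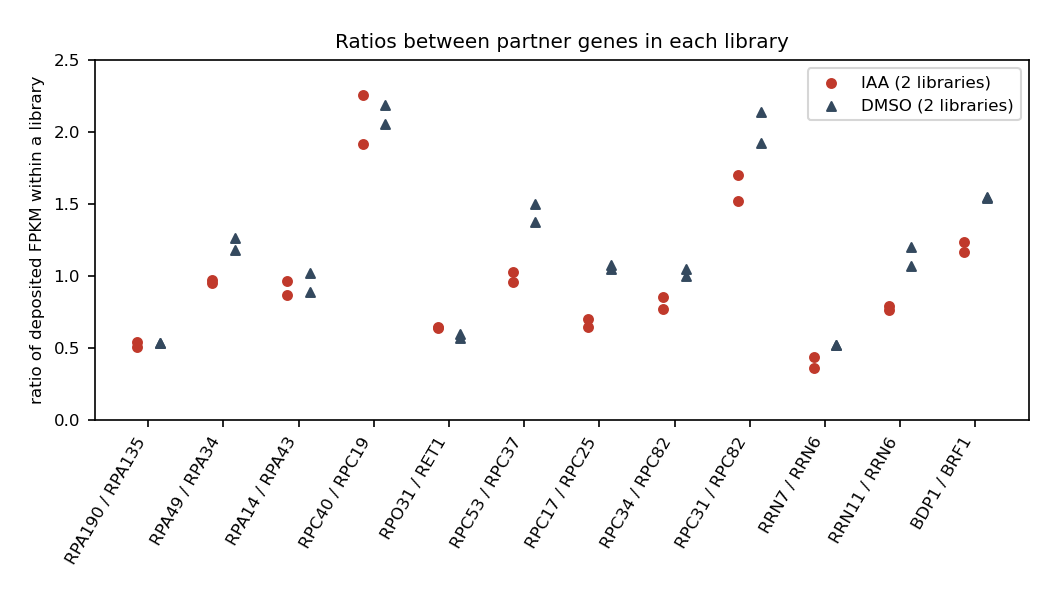
Ratio of deposited FPKM between partner genes within each library, on a linear axis from 0, for the 2 IAA libraries (circles) and the 2 DMSO libraries (triangles). RPC53 over RPC37, RPC17 over RPC25 and BDP1 over BRF1 are lower in both IAA libraries than in both DMSO libraries, RPO31 over RET1 is higher (0.637 and 0.649 in IAA libraries, 0.571 and 0.594 in DMSO libraries), and RPA190 over RPA135 overlaps.

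The Pol I initiation factors moved in both directions, with 3 of 7 lower (42.9%), 1 higher (14.3%) and a median log2 fold change of -0.22. Of all tested genes 29.6% were lower and 28.7% higher. RRN3 (chromosome XI, 208247 to 210130, plus strand), whose product makes Pol I competent to start and is a target of growth signalling, was the only member called higher. It had 138 and 109 CPM in IAA libraries and 81.9 and 78.2 CPM in DMSO libraries, a 1.54-fold rise (log2 fold change 0.62, SE 0.098, adjusted p = 8.93e-04). Both IAA libraries lay above both DMSO libraries, and the IAA libraries differed from each other more than the DMSO libraries did. Without the first IAA library the log2 fold change was 0.44 and without the second it was 0.79; both passed. Set against the Pol I stalk gene whose product Rrn3 binds, RRN3 over RPA43 in FPKM was 0.560 and 0.511 in IAA libraries and 0.283 and 0.295 in DMSO libraries, 1.85-fold higher.

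Core factor, which recruits the Rrn3-bound enzyme, consists of Rrn6, Rrn7 and Rrn11. RRN11 had the largest fall of the 7 Pol I factors among the members, with 40.2 and 37.5 CPM in IAA libraries and 50.5 and 55.3 CPM in DMSO libraries, a log2 fold change of -0.45 (SE 0.067, adjusted p = 7.21e-04). RRN7, the TFIIB-like subunit, had 22.5 and 18.02 CPM in IAA libraries and 25.1 and 24.4 CPM in DMSO libraries (log2 fold change -0.29, SE 0.099, adjusted p = 0.0329). The RRN7 groups were apart, but its call was lost in 5 alternatives, among them DESeq2 (adjusted p = 0.0563) and leaving out the second IAA library (log2 fold change -0.13, adjusted p = 0.154); without the first IAA library it was -0.46. RRN6 had 96.1 and 93.5 CPM in IAA libraries and 89.3 and 86.9 CPM in DMSO libraries, above DMSO but not past the threshold (log2 fold change 0.11, adjusted p = 0.0753). In FPKM, RRN11 over RRN6 was 0.793 and 0.762 in IAA libraries and 1.07 and 1.203 in DMSO libraries.

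In the upstream activating factor, RRN9 was lower, with 42.7 and 42.2 CPM in IAA libraries and 50.3 and 48.4 CPM in DMSO libraries (log2 fold change -0.22, adjusted p = 0.00956), a call lost under upper quartile scaling (adjusted p = 0.0645) and without the first DMSO library (adjusted p = 0.0732). RRN10 had 5.92 and 5.49 CPM in IAA libraries and 6.89 and 7.02 CPM in DMSO libraries (log2 fold change -0.28, adjusted p = 0.0545). RRN5, another subunit gene of this factor, had 11.7 and 12.0 CPM in IAA libraries and 10.2 and 10.9 CPM in DMSO libraries (log2 fold change 0.17, adjusted p = 0.124). The groups of RRN5 and RRN10 were each apart without passing the threshold. With trends against expression, coding length and GC content removed, RRN5 turned to -0.11 and RRN10 stood at -0.37.

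Of the Pol III initiation factors 4 of 8 were lower (50%, against 29.6% lower and 28.7% higher among all tested genes). Their median log2 fold change was -0.11. None was higher by edgeR, DESeq2 or limma-voom, and 0 were higher at an unadjusted p under 0.05 in edgeR. TFIIIB is the factor that holds Pol III at the start site. Its subunit gene BDP1 (chromosome XIV, 555048 to 556832, plus strand) had 111 and 97.9 CPM in IAA libraries and 138 and 143 CPM in DMSO libraries, a log2 fold change of -0.43 (SE 0.063, adjusted p = 6.17e-04). BRF1, the TFIIB-related subunit, had 90.3 and 84.0 CPM in IAA libraries and 89.5 and 92.7 CPM in DMSO libraries, groups that overlap (log2 fold change -0.06, SE 0.052, adjusted p = 0.309). BDP1 over BRF1 in FPKM was 1.23 and 1.17 in IAA libraries and 1.54 and 1.55 in DMSO libraries.

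TFIIIC has 2 arms. In the arm that binds the B box, TFC3, the largest and DNA-contacting subunit, was lower, with 119 CPM in both IAA libraries and 149 to 152 CPM in DMSO libraries (log2 fold change -0.34, SE 0.043, adjusted p = 3.36e-04). TFC6 of the same arm had 59.3 and 62.2 CPM in IAA libraries and 56.6 and 58.7 CPM in DMSO libraries (log2 fold change 0.08, adjusted p = 0.251). TFC8 had 47.0 and 44.0 CPM in IAA libraries and 43.7 and 47.3 CPM in DMSO libraries, with overlapping groups and a log2 fold change of 0.00. In the arm that binds the A box, TFC7 was lower, with 40.2 and 40.8 CPM in IAA libraries and 46.4 and 50.4 CPM in DMSO libraries (log2 fold change -0.26, adjusted p = 0.00700), a call lost without the second DMSO library (adjusted p = 0.0637). TFC4, whose product places TFIIIB, was lower, with 94.2 and 89.1 CPM in IAA libraries and 101 and 102 CPM in DMSO libraries (log2 fold change -0.15, adjusted p = 0.0266), a call lost in 5 alternatives, DESeq2 among them (adjusted p = 0.0731). TFC1 had 65.0 and 70.4 CPM in IAA libraries and 70.3 and 68.4 CPM in DMSO libraries, which overlap (log2 fold change -0.03, adjusted p = 0.617).

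MAF1, which encodes the repressor that binds Pol III when nutrients run short or cells are stressed, had 60.4 and 64.2 CPM in IAA libraries and 62.0 and 58.4 CPM in DMSO libraries. The groups overlapped, with a log2 fold change of 0.05 (SE 0.057, adjusted p = 0.482). Maf1 acts through its phosphorylation and location, which messenger RNA levels do not show.

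PAC and RRPE core letters were found in a larger share of the subunit genes' promoter windows than of all coding-gene windows. Both strands were searched; GATGAG was found in 22 of 35 member windows (62.9%), against 1222 of 6013 coding-gene windows (20.3%), and AAAATTTT in 13 of 35 (37.1%), against 542 of 6013 (9.01%). Every member window with AAAATTTT also held GATGAG, so both were present in 13 of 35 (37.1%), against 263 of 6013 (4.37%). Among the 19 subunit genes 16 held GATGAG and 12 held both, whereas among the 8 Pol III factors only TFC6 held GATGAG and none held AAAATTTT, numbers near those of all coding-gene windows. Among the 7 Pol I factors 5 held GATGAG and RRN3 alone also held AAAATTTT. The only GATGAG of RRN9 begins 1 base before the start and runs over it. Without the bases after the start 4 of the 7 held GATGAG. The longer form GCGATGAG was found in 6 of 35 member windows (17.1%), against 236 of 6013 (3.92%), and the longer form GAAAATTTT in 6 of 35 (17.1%), against 280 of 6013 (4.66%); each contains its core. Without the 50 bases after the start, GATGAG remained in 21 of 35 member windows, against 1022 of 6013 windows (17.0%). In the windows printed above, the letters begin 130 and 145 bases before the start of RPA49, 174 and 204 before that of RRN3, and 194 and 184 before that of RPC25, with PAC given first for each gene. The window of RPC53 holds 2 overlapping copies of GATGAG.

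Across all tested coding genes, windows with both letter sets went with lower levels in IAA cells, and the members followed this only in part. Of the 261 tested genes with both, 64.4% were lower and 8.43% higher, with a median log2 fold change of -0.23; of the 4310 with neither, 27.2% were lower and 30.1% higher, with a median of 0.01. Among the members with both, 7 of 13 were lower and 1 was higher, with a median of -0.18. Among the members with GATGAG alone 3 of 9 were lower, with a median of -0.19; of the 883 tested genes with GATGAG alone 30.5% were lower, with a median of -0.01. Among the members with neither, 6 of 13 were lower, with a median of -0.10, and these included RPC17 and BDP1. The letters are a description of these windows and not of factor binding.

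**Figure D4:**
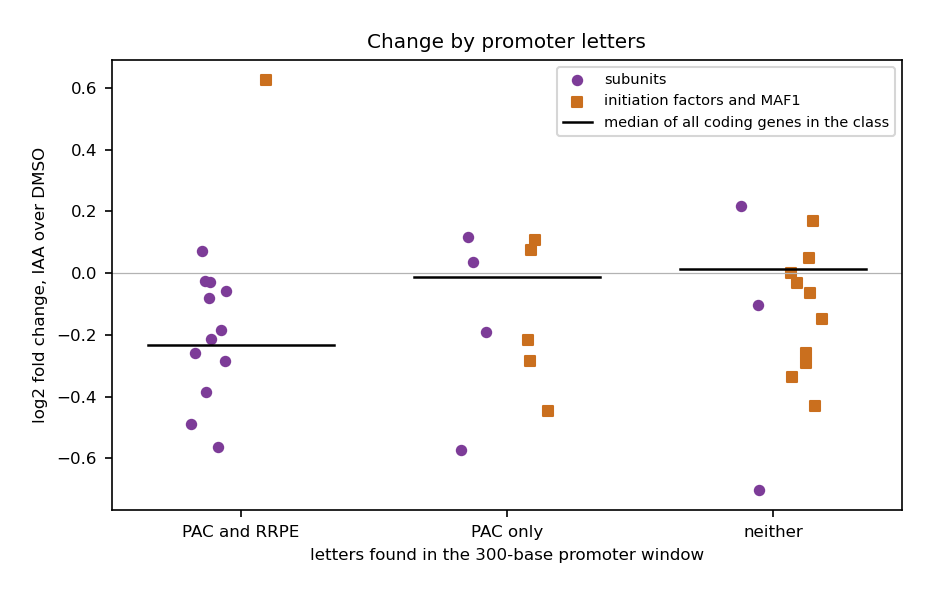
The log2 fold change of IAA over DMSO for each of the 19 subunit genes (circles) and of the 15 initiation factor genes and MAF1 (squares), split by whether the promoter window holds both PAC and RRPE core letters (13 genes), PAC letters alone (9) or neither (13). Black lines mark the median of all tested coding genes in each class, -0.23, -0.01 and 0.01; the members' spreads overlap between the classes, and RRN3 is the top point of the first.

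The members lie on 11 chromosomes and 25 of 35 have an upstream neighbour on the opposite strand, so that the sequence before a member's start often also lies before a neighbour's. RPC53 and SAS10, a gene for processing of the small ribosomal subunit RNA, diverge from starts 324 bp apart, and SAS10 was lower as well, with 253 and 241 CPM in IAA libraries and 359 and 335 CPM in DMSO libraries (log2 fold change -0.49). RPC25 and LTV1, a gene for export and assembly of the small subunit, diverge from starts 299 bp apart. LTV1 had 120 and 110 CPM in IAA libraries and 192 and 185 CPM in DMSO libraries (log2 fold change -0.71, adjusted p = 3.6e-05), while RPC25 had a log2 fold change of -0.03. These pairs are examples. Among divergent pairs with both genes called, RPA49 with CRS1 and TFC3 with NUP60 were lower together, as RPC53 with SAS10 was. RPA14, RPC34, RPC82 and RRN11 were lower while CPR1, SWM2, QCR2 and CAT2, their respective upstream neighbours, were higher. A shared upstream region thus stood beside like changes in some pairs and unlike changes in others. Upstream of RRN3 on the same strand, YPK1 had 258 and 270 CPM in IAA libraries and 228 CPM in both DMSO libraries (log2 fold change 0.21, adjusted p = 0.00341), a smaller rise than that of RRN3. The 3′ end of RPA14 overlaps the open reading frame YDR157W by a few bases on the same strand, and YDR157W had 16 to 19 counts in IAA libraries and 32 to 35 in DMSO libraries.

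Genes that work with the machinery were split, and their counts are read against the 29.6% of all tested genes that were lower and the 28.7% that were higher. Of the 5 subunits common to all 3 nuclear polymerases, RPO26 (log2 fold change -0.33, adjusted p = 5.69e-04), RPB8 (-0.26) and RPB5 (-0.15) were lower, while RPB10 (0.41, adjusted p = 0.0366) and RPC10 (0.99, adjusted p = 0.0176) were higher. RPC10 is a very short gene at low level, with 3.07 and 1.87 CPM in IAA libraries and 1.33 and 1.15 CPM in DMSO libraries, and its first IAA library stands apart from the second. With trends against expression, coding length and GC content removed, the log2 fold changes were -0.15 for RPO26, -0.14 for RPB8, -0.01 for RPB5, 0.28 for RPB10 and 0.60 for RPC10. Of 8 cofactors and ribosomal DNA proteins 5 were lower and none higher, with 0 higher at an unadjusted p under 0.05 in edgeR and 0 by DESeq2 or limma-voom. They were led by UAF30, the remaining dedicated subunit of the upstream activating factor, at -0.58 (adjusted p = 3.53e-04) and REB1, which binds the ribosomal DNA terminator, at -0.46. The TATA-binding protein gene SPT15 was not called (-0.10, adjusted p = 0.0948). Of 15 genes for regulators, 3 were higher and 6 lower: KNS1, a kinase that phosphorylates Rpc53, was higher (0.48, adjusted p = 0.00160), and TOD6, which encodes a repressor that binds PAC, was lower (-0.27, adjusted p = 0.00405). Among 7 subunits found only in RNA polymerase II, 2 (28.6%) were lower (RPB3 and RPB4), near the share of all tested genes, with a median of -0.03, and 0 were higher by any of these counts. The Pol III transcript SCR1, the RNA of the signal recognition particle, was higher, with 34.98 and 29.74 CPM in IAA libraries and 16.1 and 14.9 CPM in DMSO libraries (log2 fold change 1.07, adjusted p = 5.9e-05). RPR1, the RNA of ribonuclease P, was higher too, with 5.37 and 3.28 CPM in IAA libraries and 2.07 and 1.71 CPM in DMSO libraries (log2 fold change 1.19, adjusted p = 0.00496), and the other 8 Pol III rows were too low to test. All 8 rows for Pol I products were higher, but they are copies of RDN18, RDN25, RDN58 and RDN37 and not 8 separate measurements. Log2 fold changes ran from 0.16 for RDN18-2 to 1.08 for RDN37-1, apart from the RDN58 copies, which had 13.4 and 8.37 CPM in IAA libraries and 0.828 and 0 CPM in DMSO libraries; reads of these rows are shared between copies. These libraries may capture such RNAs only in part, since the sources used here do not say how ribosomal or polyadenylated RNA was selected, and the part of RNA capture in this difference was not tested.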

How the data were processed

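The authors deposited an estimated count (RSEM expected count) and an FPKM value per gene and library. Per the submitters' processing notes, the tools included STAR 2.7.10a and RSEM 1.3.3 with genome build R64, besides Trimmomatic; settings are not given in the sources used here. Per the labels' protocols, total RNA went into directional libraries. Members' estimated counts were whole in every library; other values were rounded. Genes were filtered with filterByExpr, scaled by TMM and tested in edgeR 4.0.16 (R 4.3.3) by glmQLFit and glmQLFTest, with Benjamini-Hochberg adjustment over 5799 genes. Alternatives used other scalings and filters, DESeq2 1.42.0, limma 3.58.1 on voom weights or on log2(FPKM + 1) and log2(FPKM + 0.1), each library left out, and a replicate block. The script was tested on simulated data. Promoter windows came from the RefSeq R64 annotation; 6456 of 6459 rows matched it. Members and lists were chosen with earlier results of these data known. All members could be named, with values per library for the largest subunits, the extremes of each list, RRN3, BRF1, MAF1 and genes whose call depended on a setting.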

Additional observations from a re-analysis of the deposited data

How the results depend on the processing

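The 16 lower members numbered between 11 and 22 under the other scalings, filters and tools, where 21.3% to 43.1% of tested genes were lower. They numbered 10 when a change of at least 1.2-fold was also asked, against 17.6% of all tested genes. The single higher member became 2 with DESeq2 size factors, where 29.2% of all tested genes were higher. It became 4 when genes averaging under 10 CPM were dropped (29.7% of all tested genes) and 7 under upper quartile scaling (37.6%). The median log2 fold change of the members was -0.25 with library size only, -0.0723 under upper quartile scaling, and -0.24 on log2(FPKM + 1) and -0.24 on log2(FPKM + 0.1), which hold no TMM scaling. Leaving out 1 library at a time gave 12 to 17 lower members, 1 to 3 higher members and medians between -0.19 and -0.0844. The second IAA library moved the median most. Relative to the median of all tested genes, the members' median in these fits lay between -0.184 and -0.0859. Each such fit leaves 1 library in a group, and without either DMSO library a smaller share of all tested genes was called. The counts from these fits are therefore not read as a result about the members. The labels do not say that equal replicate numbers share a culture or day. The difference between replicates 1 and 2 in IAA libraries correlated at 0.23 with that in DMSO libraries, across the 5799 tested genes. With a replicate block 18 members were lower and 4 higher, beside 32.4% and 31.6% of all tested genes. No result changed direction past the threshold. Of the 16 lower members 10 were called in each of 15 alternative fits and 6 were lost in at least 1. Of the 18 others 12 were called in at least 1, with 14 fits each for RRN10 and RPC11. The same tally was not made over all tested genes, so these counts do not show whether members were more stable than other genes. The longer motif forms took the members' share with PAC and with RRPE letters to 17.1% each. Depth and 4 libraries limit the precision of members with few counts, such as RRN10 and RPC11.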
